A study of Mus musculus with 3 samples.

Results

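The regions described here were 1074 binding sites of the transcription factor CEBPG that lay inside genes and carried no called ATF4 site. They were taken from the CEBPG list of 25419 peaks, of which they made up 4.23% (95% Wilson interval 3.98 to 4.48%). A peak was a member when its deposited score was from 100 to under 500, it shared no base with any of the 2642 ATF4 peaks, no ATF4 peak centre lay within 250 bp of its own centre, and its centre fell inside the span of a protein-coding gene. Members were thus chosen by their CEBPG score, by the absence of an ATF4 peak and by gene position, and those values are given below as a description only.

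Binding was mapped by ChIP-seq, the sequencing of DNA that an antibody pulls down with its bound protein, in wild-type C57BL/6 mouse embryonic fibroblasts, primary cells isolated at E13.5 and passaged. All 3 libraries came from cells plated for 24 hours and then held for 3 hours in AAD medium, that is, under amino acid deprivation, and they differed in the antibody: against ATF4, against CEBPG or against GFP. No library from fed cells was used here, so the sites describe deprived cells and not a response to deprivation. Each antibody had a single library, read from 1 end over 36 bp with 1 lane each, so without replicates no value below has an error between cultures. The peak files hold positions and scores but no reads, so depth is unknown, and they measure binding and not expression, so the labelled cell type could not be checked by its transcripts.

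CEBPG is a basic leucine zipper (bZIP) protein of the C/EBP family that binds DNA as a dimer and lacks the activation domains of its relatives. It pairs with other C/EBP proteins and with ATF4, the transcription factor whose translation rises when amino acids run short. Pairs of C/EBP proteins recognise a palindrome, whereas a C/EBP protein paired with ATF4 recognises a composite of a C/EBP half-site and an ATF half-site. Introns hold many enhancers and also alternative promoters, so a site within a gene may act on that gene, on a neighbour or on neither.

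Of the sequences that could be read, some held letters matching these half-sites, and others held only other bZIP motifs or none. RefSeq promoter windows of the build GRCm38.p6, each from 250 bases before to 50 bases after an annotated start, held the centre of 34 members. In 25 of the 34 (73.5%, 95% Wilson interval 56.9 to 85.4%) the stretch of peak inside the window held at least 1 of the 7 bZIP motifs searched, against 17.4% of all 32851 windows read at the same offsets. The median stretch was 260 bases, or 67.1% of a peak. The 10 members printed here were selected to show 5 of the 7 motifs and 1 stretch without any. Only the bases of the peak that lie before the annotated start are printed, 5′ to 3′ on the strand of the gene that starts there, with the motif in capitals and positions counted back from the start. Pafah1b2, a subunit of platelet-activating factor acetylhydrolase (chr9:45985395-45985628, minus strand), and Ttc9c, a tetratricopeptide repeat protein (chr19:8819295-8819502, minus strand), held the hybrid TGACGCAA beginning at -25 and -50. Zfp672, a zinc finger protein (chr11:58330340-58330513, minus strand), and Fbln5, an elastic fibre protein (chr12:101818485-101818734, minus strand), held TGATGCAA, the core of the composite C/EBP-ATF element, at -13 and -124. Nsun4, a mitochondrial RNA methyltransferase (chr4:116053475-116053676, minus strand), and the kinase Stk25 (chr1:93635728-93635912, minus strand) held the C/EBP form TTGCGTAA at -57 and -70. The bZIP gene Creb5 (chr6:53573124-53573373, plus strand) held the AP-1 form TGACTCA at -45. Aqp9, a channel for water and glycerol (chr9:71162634-71162852, minus strand), held TGAGTCA at -24. The starts used here include internal ones. The Creb5, Pafah1b2 and Aqp9 members were centred 286.1 kb, 27.3 kb and 5.20 kb from the 5′ end of their genes. The member in Ppp1r15a, the phosphatase subunit that reverses eIF2α phosphorylation, was centred 76 bp from the 5′ end of that gene. It also lay before the start of the neighbouring gene Plekha4, centred at -138 from it, and is printed on the strand of Plekha4 (chr7:45526080-45526320, plus strand). Counted from the Plekha4 start, it held TGACTCA at -116 and the cAMP response element TGACGTCA at -57. The member at Aldh18a1, the enzyme that opens proline synthesis (chr19:40588464-40588713, minus strand), held none of the 7 in the 300 bases read, which are 54.6% of the peak.
Pafah1b2: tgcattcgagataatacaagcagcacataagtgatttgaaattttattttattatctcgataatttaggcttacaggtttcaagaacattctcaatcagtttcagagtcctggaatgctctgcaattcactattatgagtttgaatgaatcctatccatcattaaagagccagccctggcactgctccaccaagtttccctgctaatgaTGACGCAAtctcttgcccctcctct
Ttc9c: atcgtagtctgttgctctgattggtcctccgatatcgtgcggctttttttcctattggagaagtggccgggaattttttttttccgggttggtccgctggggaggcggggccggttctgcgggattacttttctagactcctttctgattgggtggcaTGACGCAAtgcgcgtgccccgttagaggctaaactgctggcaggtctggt
Zfp672: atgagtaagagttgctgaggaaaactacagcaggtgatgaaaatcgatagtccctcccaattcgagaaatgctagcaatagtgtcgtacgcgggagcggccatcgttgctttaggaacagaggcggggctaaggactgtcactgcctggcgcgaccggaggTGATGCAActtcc
Fbln5: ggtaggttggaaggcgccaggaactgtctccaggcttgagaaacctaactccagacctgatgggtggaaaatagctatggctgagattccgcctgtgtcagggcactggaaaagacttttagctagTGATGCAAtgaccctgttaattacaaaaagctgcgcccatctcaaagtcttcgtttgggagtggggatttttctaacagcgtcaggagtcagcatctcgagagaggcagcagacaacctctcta
Nsun4: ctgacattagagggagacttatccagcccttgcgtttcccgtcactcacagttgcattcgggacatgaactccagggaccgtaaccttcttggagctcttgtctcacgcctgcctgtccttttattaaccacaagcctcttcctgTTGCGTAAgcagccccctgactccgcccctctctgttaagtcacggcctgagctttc
Stk25: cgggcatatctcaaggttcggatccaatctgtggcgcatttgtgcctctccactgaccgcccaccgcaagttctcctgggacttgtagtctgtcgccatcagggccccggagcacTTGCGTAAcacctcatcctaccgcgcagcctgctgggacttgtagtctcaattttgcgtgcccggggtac
Creb5: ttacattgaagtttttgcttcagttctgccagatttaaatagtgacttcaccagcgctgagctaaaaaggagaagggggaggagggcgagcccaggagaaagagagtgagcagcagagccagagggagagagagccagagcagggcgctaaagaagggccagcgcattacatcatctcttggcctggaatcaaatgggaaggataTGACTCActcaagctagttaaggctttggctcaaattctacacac
Aqp9: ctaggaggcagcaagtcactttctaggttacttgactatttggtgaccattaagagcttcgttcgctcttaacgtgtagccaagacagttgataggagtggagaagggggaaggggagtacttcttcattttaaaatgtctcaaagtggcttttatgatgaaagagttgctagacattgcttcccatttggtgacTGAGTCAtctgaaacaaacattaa
Ppp1r15a: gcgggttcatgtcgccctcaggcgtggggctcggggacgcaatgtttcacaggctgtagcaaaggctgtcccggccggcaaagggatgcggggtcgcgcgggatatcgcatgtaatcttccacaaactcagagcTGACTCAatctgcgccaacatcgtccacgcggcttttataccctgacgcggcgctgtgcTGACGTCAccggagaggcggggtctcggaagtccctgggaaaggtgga
Aldh18a1: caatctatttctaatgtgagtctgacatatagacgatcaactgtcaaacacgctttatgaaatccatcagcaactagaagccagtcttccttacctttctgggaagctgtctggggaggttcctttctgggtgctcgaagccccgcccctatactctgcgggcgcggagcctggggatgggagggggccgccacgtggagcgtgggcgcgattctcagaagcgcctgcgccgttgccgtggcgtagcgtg

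The 11 motifs searched, on both strands, were TTGCGCAA, TTGCNNAA (which includes the first), TGATGCAA, TGACGCAA, TTACGTAA, TGACGTCA and TGANTCA, then the E-box CACGTG, the TEAD site GGAATG, the NF-Y box CCAAT and the GC box GGGCGG. Over the 34 stretches, TTGCNNAA was found in 9, TGACGCAA in 6, TGATGCAA in 5, TGANTCA in 5, TTGCGCAA in 2 and TGACGTCA in 1, and TTACGTAA in 0. The stretch of 100 bp centred on the peak lay wholly inside a window for 22 members. TTGCNNAA stood in 6 of these 22 (27.3%, against 3.60% of all promoter windows at the same offsets), TGANTCA in 5 (22.7% against 2.75%), TGATGCAA in 3 (13.6% against 0.317%) and TGACGCAA in 2 (9.09% against 0.187%). Of the motifs outside the bZIP group, GGGCGG stood in 4 (18.2% against 19.7%), CCAAT in 2 (9.09% against 16.6%), GGAATG in 1 (4.55% against 5.04%) and CACGTG in 0 of 22. Over 200 bp, which 13 members allowed, GGGCGG stood in 6 (46.2% against 30.1%), the other way from all promoters, while TTGCNNAA (3 of 13, 23.1% against 7.45%) and TGANTCA (3 of 13, 23.1% against 5.51%) were again above them.

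Peaks of the same scores between genes gave 41 such central stretches, with TTGCNNAA in 9, TGACGCAA in 7, TGANTCA in 6 and TGATGCAA in 3. Weak CEBPG-only peaks inside genes, with scores under 100, gave 52, with TTGCNNAA in 12, TGACGCAA in 5, TGATGCAA in 3 and TGANTCA in 1. CEBPG peaks with ATF4 inside genes gave 2, with TGATGCAA in 2 and TTGCNNAA, TGACGCAA and TGANTCA in 0. Those between genes gave 13, with TGATGCAA in 3, TGACGCAA in 2, TGANTCA in 2 and TTGCNNAA in 1. The composite TGATGCAA was thus present in some members without a called ATF4 peak, as well as in peaks with one. These counts were not tested. They cover only members at annotated starts, which are a small share of the set, and a match describes letters and not a bound site.

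Members were concentrated in the lower part of the score range. The median score was 172.9 (quartiles 129 and 272, range 100.11 to 497.57). Of the 1074 members, 429 (39.9%) scored from 100 to under 150 and 192 (17.9%) from 150 to under 200. A further 240 (22.3%) lay from 200 to under 300, 147 (13.7%) from 300 to under 400 and 66 (6.15%) from 400 up. Higher-scoring members were wider, from a median of 286 bp in the lowest of these bands to 490 bp in the highest, and over members score and width had a Spearman correlation of 0.68, as a description of 2 outputs of the same peak call. The median width was 353 bp (quartiles 286 and 433, range 53 to 847), and the members covered 389.9 kb in all. Peaks of the same scores between genes were similar in size (1160 peaks, median score 176 and median width 357 bp). Weak CEBPG-only peaks inside genes had a median width of 129 bp, and CEBPG peaks with ATF4 inside genes 570 bp.

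The 10 members with the highest scores lay in genes of varied function, and 8 of the 10 were more than 1 kb from the nearest annotated start or had none listed. Atl3, an atlastin that shapes the endoplasmic reticulum, held the highest (score 497.57, chr19:7506176-7506661), centred 12.4 kb from the 5′ end of the gene. Nucb2, the precursor of nesfatin, followed with 497.14 (chr7:116524550-116524928), 15.8 kb from the 3′ end. Rbbp8, which starts the resection of broken DNA ends, had 494.95, and Gnpnat1, an enzyme of the hexosamine pathway, had 492.23 (chr14:45385624-45386057). The Pafah1b2 member, printed above, scored 491.49 and was centred 17 bp from an annotated start that lay 27.3 kb inside the gene span. Adamtsl3, a secreted matrix protein, had 489.02, and Aff1, a scaffold of transcription elongation complexes, 488.13 at 0.790 kb from an internal start. The RNA-binding protein Rbms2 had 486.16, the cytoskeletal linker Dst 485.97 and the deubiquitinase Usp40 485.42. Just outside the upper limit lay peaks in Pde8a (500.69) and Ubl3 (502.51). At the lower limit, Kcnq5 (100.11), Stk40 (100.28) and Ahnak (100.28) were the members just inside, and peaks in Palld (99.9) and Deptor (99.81) lay just outside.

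Both the score and the position inside a gene chose the members, so how they go together is given as a description with no test. Of 2234 moderate CEBPG-only peaks, 1074 (48.1%, 95% interval 46.0 to 50.1%) were inside genes, against 9255 of 22377 weak ones (41.4%, 40.7 to 42.0%). Of strong CEBPG-only peaks, with scores of 500 and up, 179 of 391 were (45.8%, 40.9 to 50.7%). Gene spans cover 38.3% of the stretch from the first to the last gene of each chromosome. The share inside genes was 40.9% for scores from 40 to under 45, 43.5% from 60 to under 80 and 47.9% from 80 to under 100, and lay between 46.5 and 48.9% in the bands from 100 to 500.

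**Figure D1:**
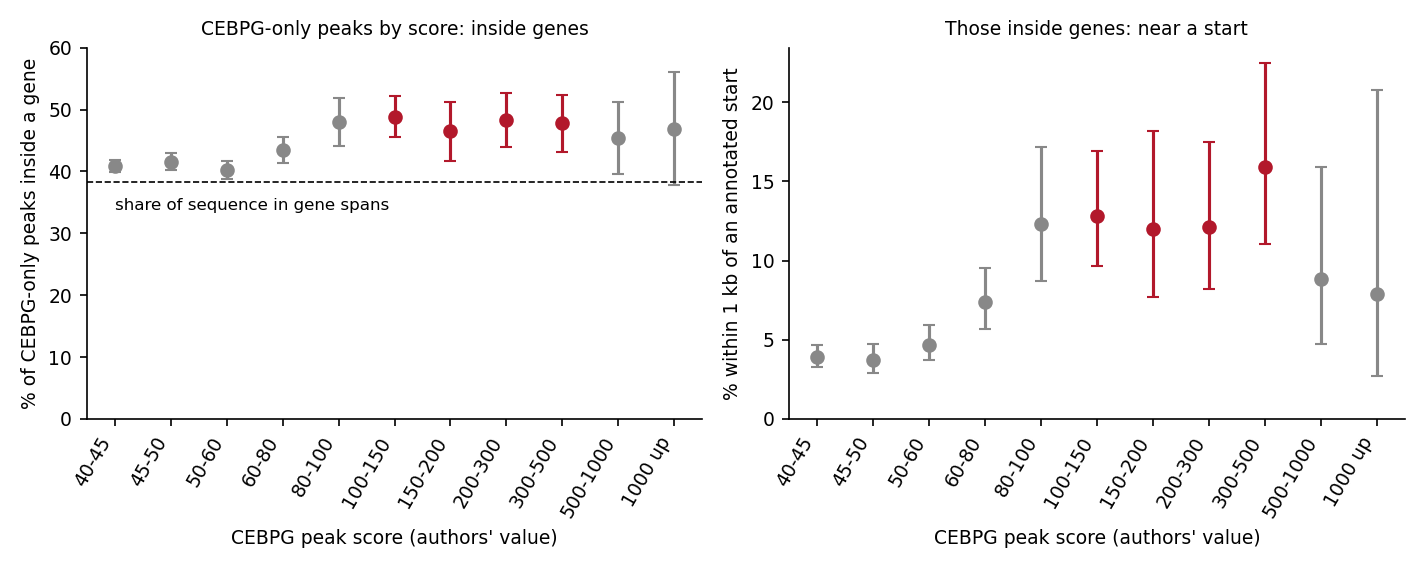
Percent of CEBPG-only peaks inside a gene (left) and, of those inside, percent within 1 kb of an annotated start (right), by deposited score with 95% Wilson intervals; the members' bands are in red and the dashed line is the share of sequence in gene spans. The bands from 100 to 500 hold 46.5 to 48.9% inside genes, against 40.9% in the lowest band.

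Most members were far from either end of their gene. The median distance from a member's centre to the nearer end was 21.6 kb (quartiles 6.12 and 69.7 kb, highest 990.5 kb), and 726 of the 1074 (67.6%) were more than 10 kb away. The other CEBPG peaks inside genes were mostly far from an end too. The median and the share beyond 10 kb were 31.1 kb and 74.0% for weak CEBPG-only peaks and 28.5 kb and 69.3% for strong ones. For peaks with ATF4 they were 17.2 kb and 61.1%. A minority lay at the ends: 89 members (8.29%) were within 1 kb of one, against 407 of 9255 weak CEBPG-only peaks inside genes (4.40%). The difference was 3.89 percentage points (2.32 to 5.73, adjusted p = 5.43e-07, two-sided Fisher's exact test with Benjamini-Hochberg adjustment over a family of 10 tests). Members lay in shorter genes than weak peaks, with a median host length of 117.3 kb against 153.2 kb, counted per peak. The part of gene length in this difference was not tested. Tests of this kind compare peaks of 1 library, neighbouring peaks are not independent, and the p-values say nothing about other cultures. CEBPG peaks with ATF4 inside genes had 20 of 175 (11.4%), and the difference of the members from them, -3.14 points, had an interval from -8.91 to 1.16 (adjusted p = 0.321, Fisher's exact test).

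The members at gene ends were mostly at the 5′ end. Of 803 members in a single gene of known strand, 62 (7.72%) were within 1 kb of the 5′ end and 11 (1.37%) within 1 kb of the 3′ end. Weak CEBPG-only peaks had 2.92% and 1.73%, and CEBPG peaks with ATF4 had 9.85% and 2.27%. Strong CEBPG-only peaks inside genes had 5.00% (2.44 to 9.96%) and 1.43%. The median member lay at 0.380 of the way along its gene from the 5′ end, the median weak peak at 0.467, the median strong peak at 0.399 and the median peak with ATF4 at 0.339. The first 10% of the gene span held 16.7% of the members and the last 10% held 7.97%. That first part held 13.6% of strong CEBPG-only peaks and 22.0% of peaks with ATF4.

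**Figure D2:**
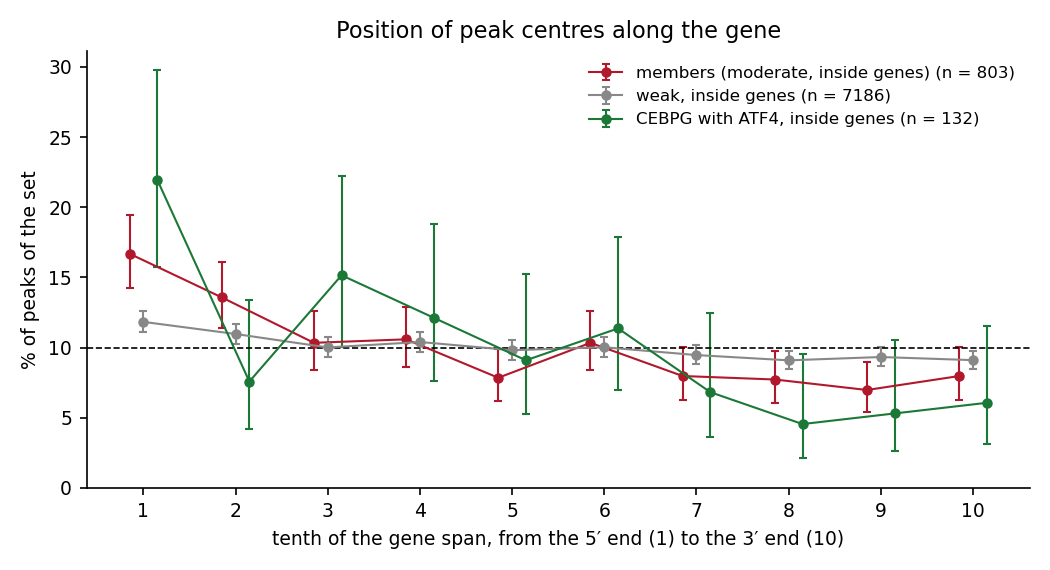
Percent of peak centres in each of 10 equal parts of the gene span, from the 5′ to the 3′ end, for members, weak CEBPG-only peaks and CEBPG peaks with ATF4, with 95% Wilson intervals and a dashed line at an even 10%. Members were most frequent in the first 10% of the gene (16.7%), where weak CEBPG-only peaks had 11.8% and CEBPG peaks with ATF4 22.0%.

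Annotated starts, internal ones and those of other genes included, separated members from weak peaks more widely. Of 824 members whose gene had a listed start, 108 (13.1%, 95% interval 11.0 to 15.6%) were centred within 1 kb of a start, against 336 of 7254 weak CEBPG-only peaks (4.63%). The difference was 8.47 points (6.28 to 11.0, adjusted p = 6.49e-18, Fisher's exact test). CEBPG peaks with ATF4 had 19 of 133 (14.3%), and the difference of -1.18 points had an interval from -8.45 to 4.35 (adjusted p = 0.681, Fisher's exact test). By score, the share was 3.91% from 40 to under 45, 7.40% from 60 to under 80, and 12.3% from 80 to under 100. In the members' own bands it was 12.8% from 100 to under 150, 12.0% from 150 to under 200, 12.1% from 200 to under 300 and 15.9% from 300 to under 500 (95% interval 11.0 to 22.5%), and above them 8.82% from 500 to under 1000. Higher-scoring peaks are wider, and the part of width in these shares was not tested.

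Of the highest-scoring members within 1 kb of a gene end, 3 are given with their positions. Wars, the tryptophanyl-tRNA synthetase, had a score of 476.2 (chr12:108893187-108893664), centred 750 bp from an end of its span. Aldh18a1, printed above, had 419.11 at 17 bp from the end (chr19:40588172-40588720). The gene encoding CEBPG itself, Cebpg, held a member of score 402.96 centred 348 bp from its annotated start (chr7:35056042-35056394), in a span that the predicted gene Gm45095 overlaps. The nearest ATF4 peak centre was over 50 kb away from each of these 3.

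A further 6 were Iah1, an esterase (471.8), Rhbdd1, a rhomboid protease (468.95), Chd2, a chromatin remodeller (450.48), Ttc9c (444.74), Slc25a39, a mitochondrial glutathione carrier (410.94), and Atg10, an enzyme of ATG12 conjugation in autophagy (394.07). The Atg10 member was centred 29 bp from the 5′ end of the gene span.

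Members were spread over 939 of 21883 protein-coding genes (4.29%). Of these genes, 817 held 1 member, 92 held 2, 24 held 3, 5 held 4 and 1 held 5, and 24 members lay in overlapping genes. Host genes were long, with a median of 99.0 kb against 17.2 kb for all protein-coding genes. The share of genes with a member was 0.568% below 10 kb, 2.7% from 10 to under 50 kb, 7.35% from 50 to under 100 kb, 14.4% from 100 to under 300 kb and 35.3% from 300 kb up. Per unit of length the order was the other way: the shortest class held 1.44 members per Mb of gene (95% Poisson interval 1.06 to 1.92) and the longest 0.857 (0.759 to 0.965). Weak CEBPG-only peaks went from 7.56 per Mb in the shortest class to 9.44 in the longest. All genes together held 1.05 members per Mb.

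**Figure D3:**
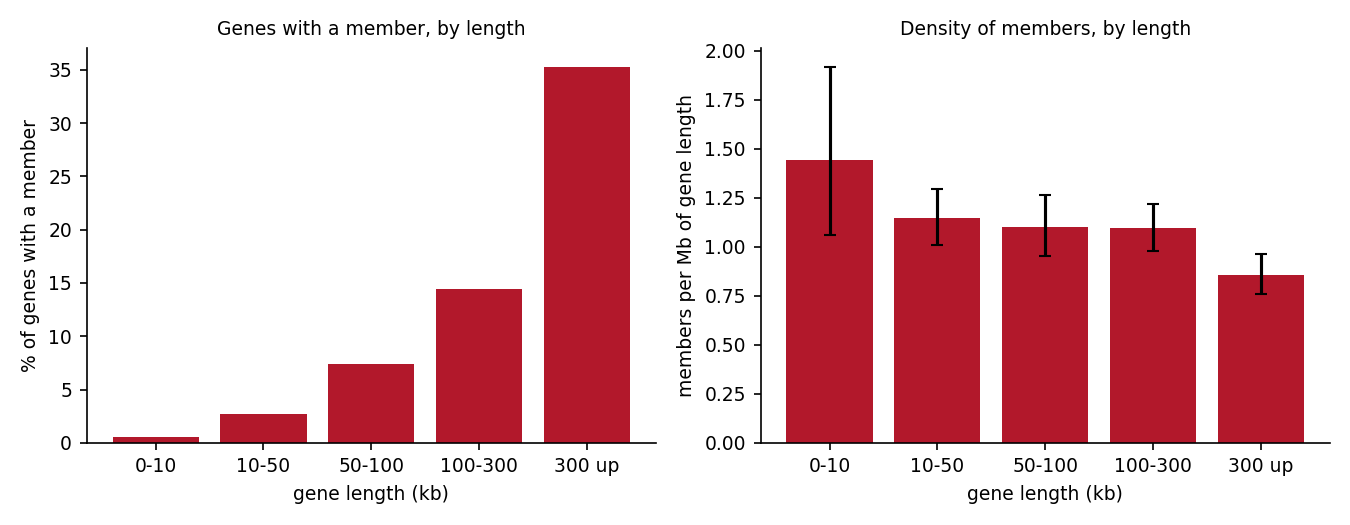
Percent of protein-coding genes with a member (left) and members per Mb of gene length with 95% Poisson intervals (right), by gene length class. The share goes from 0.568% to 35.3% with length, whereas the density goes from 1.44 to 0.857 members per Mb.

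The genes with the most members held them over stretches of 55.1 to 706.7 kb. Tenm4, a teneurin of cell adhesion, held 5 with scores from 121.05 to 303.5 over 706.7 kb. They were centred 0.531 kb, 5.76 kb, 219.9 kb, 630.3 kb and 707.2 kb from the 5′ end, and the highest of them lay 11 bp from the start of Gm15413. Dlc1, a GTPase-activating protein and tumour suppressor, held 4 over 104.8 kb with scores of 416.56, 104.82, 450.87 and 360.35, and the last 2 were 0.998 kb apart. Another GTPase-activating protein, Arhgap24, held 4 (109.86 to 307.26). The same number lay in Aig1, a membrane hydrolase of fatty acid esters (101.27 to 376.3), in Babam2, a subunit of a BRCA1 complex (131.2 to 217.08), and in Arid5b, a DNA-binding cofactor (107.37 to 211.31). With 3 each followed Dst (267.75 to 485.97), Veph1 (105.73 to 479.63), Atg10 (185.29 to 394.07) and Phldb2 (139.85 to 379.09). Among all members, 8 neighbouring pairs were within 1 kb of each other, the closest at 281 bp.

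Members and CEBPG peaks with ATF4 shared 35 genes. These were 3.73% of the 939 host genes, against 0.759% of all protein-coding genes with a CEBPG peak with ATF4, and 21.1% of the 166 genes with such a peak, against 4.29% of all genes with a member. Long genes have room for both, so the shares are also given by length, with no test. Among genes of 300 kb and up, 7.65% of host genes (15 of 196, 95% interval 4.69 to 12.2%) and 4.44% of other genes (16 of 360, 2.75 to 7.10%) held one. From 100 to under 300 kb the shares were 5.19% (3.11 to 8.51%) and 2.31% (1.68 to 3.17%). From 50 to under 100 kb they were 2.16% (0.844 to 5.43%) and 0.944% (0.624 to 1.42%), and from 10 to under 50 kb 0.823% (0.226 to 2.95%) and 0.536% (0.403 to 0.712%). Below 10 kb, 0 of 45 host genes (up to 7.87%) and 0.114% of other genes held one. The host genes' share was the higher in the 4 classes from 10 kb up, and the intervals overlapped in each of these classes. Weak CEBPG-only peaks were present in 594 of the host genes and strong CEBPG-only peaks in 38. For these 2 counts the matching shares over all genes or by length are not given. Host genes are long, so the counts do not show that the peaks occur together.

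Another CEBPG peak was centred within 5 kb of 270 members (25.1%), against 318 of 1160 moderate CEBPG-only peaks between genes (27.4%). The difference, -2.27 points, had an interval from -5.91 to 1.38 (adjusted p = 0.328, Fisher's exact test). Weak CEBPG-only peaks inside genes had a neighbour in 17.6% of cases, 7.57 points fewer than the members (4.95 to 10.4, adjusted p = 1.64e-08, Fisher's exact test). The neighbours of the members were mostly small: of 142 members with a CEBPG peak within 1 kb, 126 had a weak CEBPG-only peak as the nearest, 134 had a neighbour of lower score than their own, and the median distance was 319.5 bp at a median neighbour score of 49.2. When only neighbours with a score of 100 or more were counted, members had 50 (4.66%), peaks between genes 87 (7.50%, adjusted p = 0.0151, Fisher's exact test, with the family of 10 recomputed under this setting) and weak peaks inside genes 3.61% (adjusted p = 0.177, Fisher's exact test). The excess over weak peaks thus did not pass the test without weak neighbours, and side peaks called on the flank of a single site were not told apart from separate sites.

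An ATF4 peak centre lay within 1 kb of 6 members, within 5 kb of 23 (2.14%), within 20 kb of 55 (5.12%) and within 50 kb of 104 (9.68%). Of weak CEBPG-only peaks inside genes, 0.335% had one within 1 kb (95% interval 0.236 to 0.475%), against 0.559% of members (0.256 to 1.21%), and 1.12% within 5 kb (0.928 to 1.36%), against 2.14% of members (1.43 to 3.19%). Moderate CEBPG-only peaks between genes had 2.16% within 5 kb (1.46 to 3.16%). These short distances were not tested. The median distance was 390 kb, against 306 kb for moderate CEBPG-only peaks between genes and 331 kb for weak ones inside genes. At 50 kb the peaks between genes had 137 of 1160 (11.8%), and the difference of -2.13 points had an interval from -4.69 to 0.455 (adjusted p = 0.233, Fisher's exact test). Within 100 kb the shares were 17.6% and 22.0% (adjusted p = 0.0216, Fisher's exact test, with the family refitted at that distance), so of the 20, 50 and 100 kb limits tried that comparison passed the threshold only at the longest. Weak peaks inside genes had 10.2% at 50 kb, and the difference of -0.527 points had an interval from -2.27 to 1.48 (adjusted p = 0.681, Fisher's exact test).

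**Figure D4:**
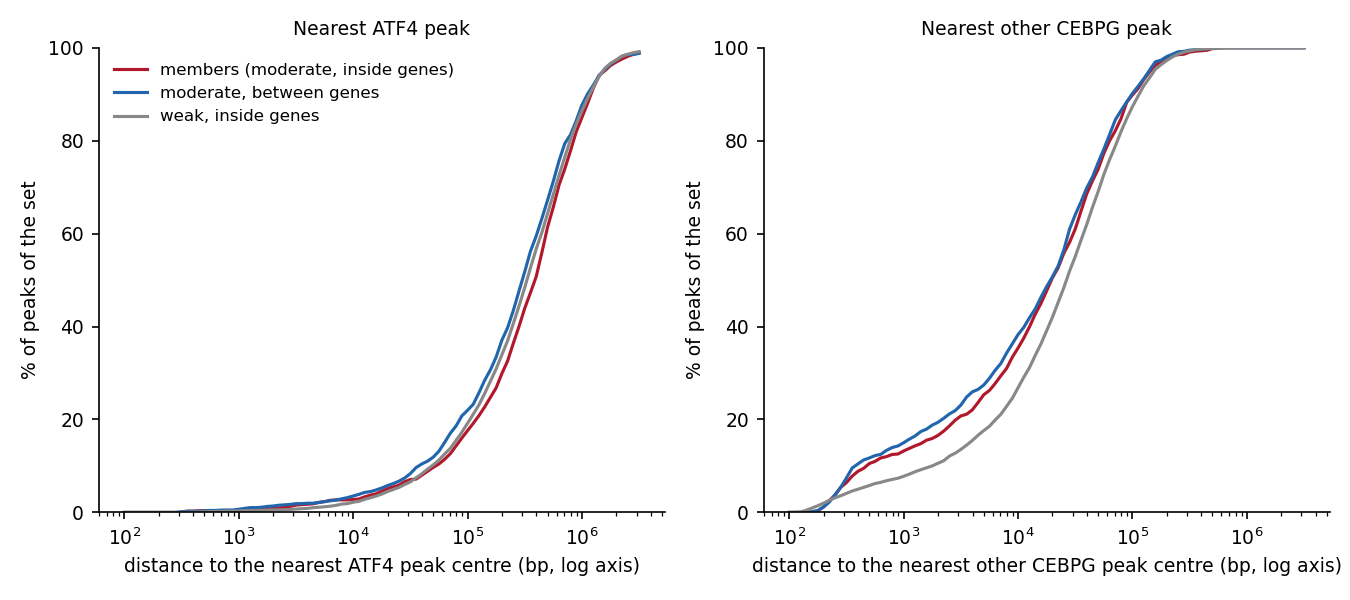
Cumulative share of peaks with an ATF4 peak centre (left) or another CEBPG peak centre (right) within a given distance, on a logarithmic distance axis, for members and the other CEBPG peak sets. Members reach 9.68% for ATF4 at 50 kb and 25.1% for CEBPG at 5 kb.

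The 5 members closest to an ATF4 peak lay in Hdac4, a histone deacetylase (322 bp between centres, score 232.65), Lsg1, a GTPase of ribosome maturation (349 bp, 239.46), Wwtr1, the coactivator TAZ (350 bp, 276.83), Aqp9 (405 bp, 171.53) and Arl15, a small GTPase (894 bp, 390.47). The Lsg1 and Aqp9 members were also within 22 bp and 14 bp of an annotated start.

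The genes of 19 lists, 431 genes in all and assembled from general knowledge with earlier results of these data known, were then read beside the 4.29% of all genes that held a member. Since long genes hold more members, each list is also given as members per Mb of its genes, beside 1.05 for all genes and 8.99 per Mb for weak CEBPG-only peaks. By density, 15 of the 19 lists lay above all genes, and in 6 the interval did too, weak peaks being denser than over all genes in 5 of these 6. In the list of actin cytoskeleton and focal adhesion genes, 9 of 24 (37.5%) held a member, at 3.68 per Mb (95% Poisson interval 1.84 to 6.58; weak peaks 19.7 per Mb). They included the focal adhesion protein Lpp with 3 members (250.08, 103.63 and 102.4), the focal adhesion kinase Ptk2 (202.18), the non-muscle myosin Myh9 (155.07) and the integrin Itgb5 (136.58).

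In the list of extracellular matrix and fibroblast structural genes, 6 of 24 held a member (3.85 per Mb, 1.66 to 7.58; weak peaks 13.46 per Mb). Ltbp1, which holds latent TGF-β in the matrix, had 3 (370.15, 164.42 and 113.53), and the collagen genes Col4a2 (139.47), Col5a3 (131.55) and Col1a1 (117.85) had 1 each. The TGF-β and BMP list had 5 of 23 (4.34 per Mb, 1.74 to 8.94; weak peaks 16.7 per Mb). Its members lay in the signal transducer Smad3 (272.42, 183 and 129), the receptor Acvr2a (197.17), the inhibitory Smad7 (146) and Smad6 (106.33) and the ligand Tgfb2 (104.19). In both lists weak CEBPG-only peaks were also denser than over all genes.

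Mesenchymal transcription factors held members in 9 of 24 genes (2.22 per Mb, 1.11 to 3.98; weak peaks 16.8 per Mb), among them Tcf4 (376.26 and 104.29), Zeb1, a repressor of epithelial genes (270.58), Foxp1 (247.74 and 193.05) and Runx1 (167.36). All 4 nuclear factor I genes, Nfia, Nfib, Nfic and Nfix, were among the 9, with scores from 105.66 to 135.97. Of the circadian clock list, 3 of 21 genes held a member: the nuclear receptor Rora, an activator of the clock loop, with 3 (175.33, 132.58 and 117.8), the repressor Cry2 (159.9) and Clock itself (122.04). The density of that list was 2.84 per Mb (0.923 to 6.64). The glucocorticoid receptor gene Nr3c1 (385.99) led the nuclear hormone receptor list, of which 3 of 22 held a member, at 0.876 per Mb (0.181 to 2.56). The intervals of the circadian and nuclear receptor lists include the 1.05 per Mb of all genes.

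Of 20 aminoacyl-tRNA synthetase genes, 4 held one: Wars (476.2), Farsb (238.31), Vars (227.24) and Nars (115.72), at 6.20 per Mb (1.69 to 15.9; weak peaks 12.4 per Mb). Of 21 amino acid transporter genes, 3 did: Slc38a2, which carries neutral amino acids (274.94), the cationic carrier Slc7a3 (250.63) and the glycine carrier Slc6a9 (227.42 and 150.48), at 4.34 per Mb (1.18 to 11.1; weak peaks 6.50 per Mb). Of 22 genes of the integrated stress response and its ATF4 targets, 2 held a member, Aldh18a1 (419.11) and Ppp1r15a (130.19), at 5.18 per Mb (0.627 to 18.7). The bZIP list had 3 of 28, Cebpg (402.96), Creb5 (182.13) and the antioxidant regulator Nfe2l2 (155.3), at 2.05 per Mb (0.423 to 6.00). The list of mTORC1 control and autophagy had 1 of 26, Atg10, at 1.62 per Mb (0.335 to 4.75). The intervals of the last 3 lists include the 1.05 per Mb of all genes, and those of the first 2 lists, each resting on 4 members, lie above it. Other CEBPG peaks lay in these lists too. Strong CEBPG-only peaks were in 5 synthetase, 4 transporter, 1 stress response, 2 bZIP and 0 mTORC1 and autophagy genes. CEBPG peaks with ATF4 were in 5, 2, 5, 2 and 1, against 0.759% of all protein-coding genes. The share of all genes with a strong peak is not given, and gene length was not matched.

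The lists of long genes differed in density. Axon guidance had the highest share, 11 of 24 genes, with Ntn4 (368.63 and 160.72), Plxna4 (348.8), Sema6d (310.3) and Epha3 (243.96) leading, yet its density was 1.52 per Mb (0.833 to 2.56). Neuronal genes had 7 of 20 (Kcnma1 at 245.22, 207.67 and 116.36, and Ctnna2 at 222.21 among them) at 0.474 per Mb (0.217 to 0.900), with weak peaks at 7.85 per Mb. Blood cell genes had 0 of 20, which allows a share of up to 16.1% by the Wilson interval and a density of up to 5.09 per Mb by the Poisson interval.

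The remaining lists each had members in 3 genes or fewer. WNT signalling had 3 of 21 (Gsk3b 286.93, Dkk2 283.91 and Ror1 159.9) at 1.62 per Mb (0.335 to 4.74). Lipid and adipocyte genes had 3 of 24 (Acsl3 210.45, Acsl4 208.35 and Ebf1 204.07) at 1.57 per Mb (0.323 to 4.57). Cell cycle genes had 3 of 24 (Ccnd3 269.59, Cdk14 263.3 and 164.33, and Rb1 104.74) at 2.80 per Mb (0.763 to 7.17). Receptor tyrosine kinases and adaptors had 1 of 21 (Grb10 209.73) at 0.523 per Mb (0.0133 to 2.92). Inflammatory genes had 1 of 23, the prostaglandin synthase Ptgs2 (358.64), at 2.12 per Mb (0.0537 to 11.8). Each of these intervals includes the 1.05 per Mb of all genes. No list was tested, and the intervals of the densities cover counting error only.

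**Figure D5:**
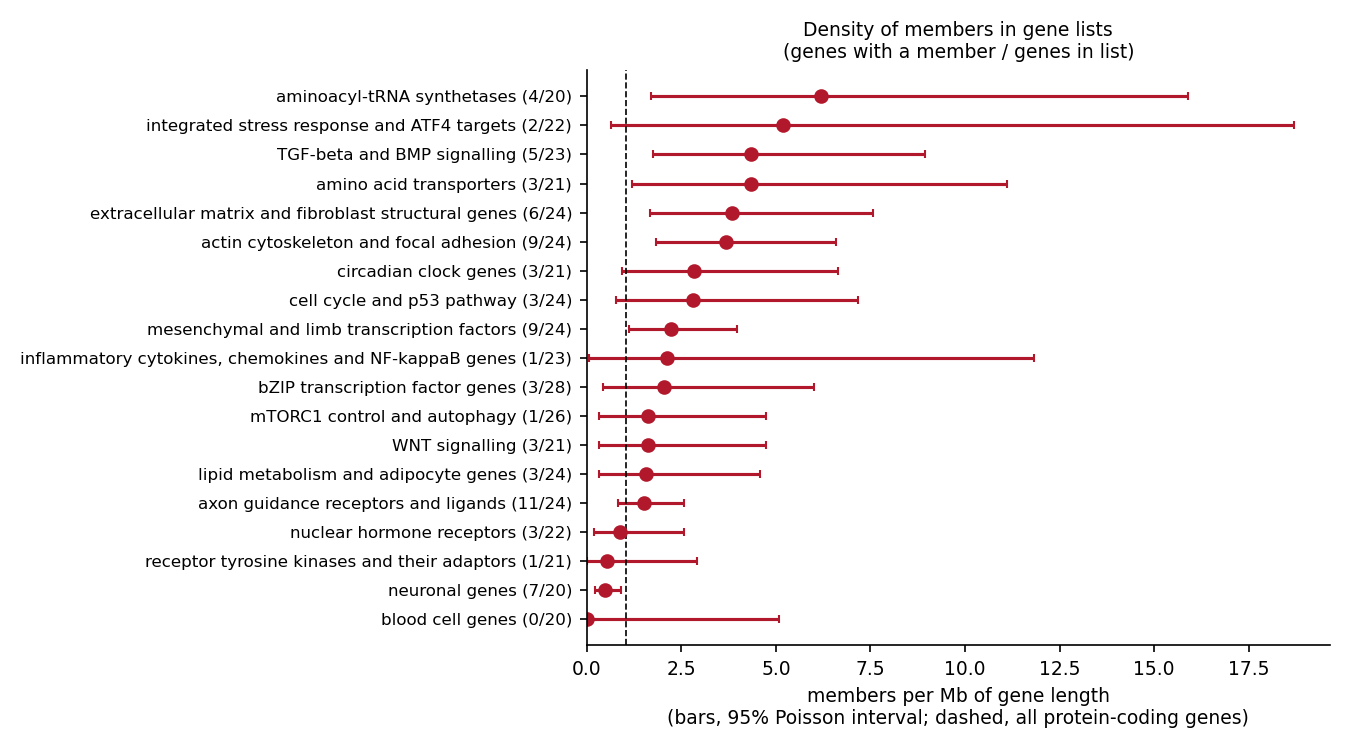
Members per Mb of gene length in each of the 19 gene lists (points) with 95% Poisson intervals (bars), with all protein-coding genes as the dashed line at 1.05. Aminoacyl-tRNA synthetase genes stand highest at 6.20 and blood cell genes hold 0.

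Across chromosomes the density of members ran from 0.786 per Mb of gene span on chromosome 14 to 1.395 on chromosome 19 among the autosomes. The X chromosome held 20 members, or 0.438 per Mb, and weak CEBPG-only peaks were also sparse there, at 2.67 per Mb against 7.36 to 11.5 on the autosomes.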

How the data were processed

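The deposited CEBPG and ATF4 peak files give a position per peak and a score at the end of its name, which is the authors' own value, used here only to describe and filter peaks. Positions are in mm10, and the tools listed are HOMER, MACS 1.4.2, BWA and Trimmomatic, with no roles, per the submitters' processing notes. Not given in the sources used here are the scale of the score, the settings and whether the GFP library served as background. Each list came from 1 library, per the labels, with no pooling recorded. The GFP library was not analysed here.

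Gene spans came from RefSeq (GRCm38.p6, the same build), and strand and starts from RefSeq promoter windows, which list a start for 17491 of 21883 protein-coding genes and none on chromosome 18. Exons and introns were not annotated. Positions are 1-based. Shares have 95% Wilson intervals and were compared with two-sided Fisher's exact tests in scipy 1.17.1, with Benjamini-Hochberg adjustment over 10 tests and a threshold of 0.05. The 2 of them on position inside genes by score use values that chose the members and are not printed. P-values under an alternative setting were adjusted over the same 10 tests recomputed with it. Scripts ran in python 3.11.15 and were tested on simulated data. The motif tests planned on all members needed a genome and were replaced by counts over promoter windows. The comparison by annotated start, and those of neighbours with weak peaks inside genes, were added after seeing the data. All 431 list genes matched, 1 by a synonym.

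Members, lists and tests were chosen with earlier results of these data known. Genes were named by rank: the 10 highest scores, those beside each score limit, the 10 genes with most members, the 10 highest within 1 kb of a gene end, up to 4 genes of each list and the 5 members closest to an ATF4 peak. The sequences, the nuclear factor I genes and Tgfb2 were chosen after their values were seen. A single-gene value that this rule would name is not reported here.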

Additional observations from a re-analysis of the deposited data

How the results depend on the processing

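Of 124 values under alternative settings (ATF4 distance, score range, gene definition, peak width, distances, motif windows), 109 kept their direction and their side of the threshold or stayed within the limits set for a count or share. The tally includes the tests on position inside genes by score, which use values that chose the members. Leaving out peaks over 1 kb wide kept all 1074 members. Asking only for no shared base with an ATF4 peak also gave the same 1074. Under these settings only the peaks compared with the members could change. With scores from 150 to under 500, members fell to 645 and genes holding them to 595. The comparison of an ATF4 peak within 50 kb with weak peaks inside genes turned direction with scores from 150 (10.4% of members against 10.1%), with scores from 80 (10.2% against 10.2%, with members higher in the third decimal) and within 20 kb (5.12% against 4.51%), never past the threshold. Members within 1 kb of a start against peaks with ATF4 turned when the whole peak had to lie inside the gene (11.1% against 10.9%). Counting only neighbours of score 100 or more gave 4.66% of members within 5 kb against 7.50% between genes, which then passed, and against 3.61% of weak peaks, which then did not. Within 100 kb of an ATF4 peak the members' share of 17.6% passed against 22.0% between genes. Of 22 motif shares over longer stretches, 16 stayed within their intervals. TTGCGCAA went to 0 of 13 over 200 bp and 0 of 4 over whole peaks, TGANTCA and GGAATG to 0 of 4, and GGGCGG to 46.2% and 75%. The cause was not tested in any of these. No paired analysis was possible because each antibody had 1 library, and no replicate could be left out. Depth is unknown, and a member's lack of an ATF4 peak says only that none was called.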
